A study of Mus musculus with 2 samples.

Results

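The cells described here are Reln-expressing neurons that carry the marker set of Cajal-Retzius cells, taken from single-cell RNA sequencing (10x Genomics 3' v3) on dentate gyri that were dissected from mice at postnatal day 5. A cell was chosen when it held at least 3 UMIs (unique molecular identifiers, counted molecules) of Reln, at least 2 UMIs of Ndnf, Lhx1, Trp73 and Cacna2d2 together, and 0 UMIs of Gad2, among cells with 1000 or more UMIs, 500 or more detected genes and no more than 10% of UMIs from mitochondrial genes. The gate gave 952 of 21370 filtered cells: 492 of 11414 in the control library (4.31%, exact 95% interval 3.95 to 4.70) and 460 of 9956 in the Setdb1_cKO library (4.62%, 4.22 to 5.05). The control library came from wild type mice and the other from Setdb1 conditional knockout mice, both of the same age, with dissected tissue dissociated by an enzyme kit. The sources used here do not give the Cre driver, the strain or how many animals were pooled per library.

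Cajal-Retzius cells are among the first neurons of the cortex and hippocampus and settle in the outermost layer, in the hippocampus along the fissure and the outer molecular layer of the dentate gyrus. They secrete reelin, the product of Reln, a glycoprotein that binds the receptors Vldlr and Lrp8 on migrating neurons and radial glia, acts through the adaptor Dab1 and guides the layering of granule and pyramidal neurons. Most come from the cortical hem and neighbouring borders of the telencephalon, where Lhx1, Lhx5 and the p53 relative Trp73 mark them, and most die in the first weeks after birth, later in the hippocampus than in the neocortex. Setdb1 encodes a histone methyltransferase that deposits H3K9 trimethylation, a repressive chromatin mark.

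Each genotype had 1 library, so differences below are between these libraries and have no replicate check. No p-value was computed, and the intervals account for the error of counting alone. The libraries also differed in sex-linked transcripts: Xist was at 0 UMIs in gated control cells and 4466 UMIs in gated Setdb1_cKO cells, and the Y-linked Ddx3y was at 304 and 0 UMIs, so genotype and sex cannot be told apart. The gated cells held 4240063 UMIs in control and 4867859 in Setdb1_cKO, with medians of 8276 and 9214 UMIs per cell, against medians of 5956 and 7038 in all other filtered cells. The libraries shared 68 barcodes, of which 3 control and 3 Setdb1_cKO cells were in the gate and 0 in both.

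The genes that chose the cells are given as a description only. Reln had a median of 30 UMIs per gated cell in control and 28 in Setdb1_cKO, with highest values of 120 and 126. The 4 partner genes together had medians of 38 and 41 UMIs. Ndnf, a secreted neurotrophic factor that is also found in layer 1 interneurons, was detected in 98.6% and 99.3% of the gated cells, the LIM transcription factor gene Lhx1 in 89.8% and 87.8%, and Trp73 in 77.6% and 76.3%. Most cells thus lay far inside the thresholds. The 33 control and 41 Setdb1_cKO cells with 3 to 5 Reln UMIs were shallower, with medians of 2583 and 3189 UMIs. The summed level of 10 Cajal-Retzius markers outside the gate (Lhx5, Ebf1, Ebf2, Ebf3, Tbr1, Calb2, Nhlh2, Zic1, Cxcr4 and Car10) was 1343 and 1220 CPM in these cells (CPM, a gene's UMIs relative to all UMIs of the same cells, scaled to a common total), against 2756 and 2586 CPM over all gated cells. Just outside the gate, 58 and 35 cells with 1 or 2 Reln UMIs and enough partner UMIs had 772 and 575 CPM. Another 10 control and 26 Setdb1_cKO cells failed the gate only on Gad2, and their Gad1 levels were 164 and 236 CPM, against 2.36 and 6.16 CPM in the gated cells.

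Genes that the gate did not use carried the same identity in both libraries. Lhx5, the LIM factor that pairs with Lhx1 in hem-derived Cajal-Retzius cells, was at 113 CPM in gated control cells and 68.8 CPM in gated Setdb1_cKO cells, against 0.456 and 0.351 CPM in all other cells. Ebf3, a helix-loop-helix factor of early neurons, was at 176 and 123 CPM, against 0.684 and 1.04 CPM elsewhere. The homeobox gene Barhl2 was at 71.2 and 62.7 CPM and Mab21l1 at 46.7 and 43.1 CPM, with other cells at or below 0.339 CPM for both. These 4 genes were thus low over the pool of other cells, although cells just outside the gate carried some of them: Ebf3 was at 98.6 and 92.8 CPM in the cells that failed only on Gad2, and at 28.2 and 26.9 CPM in those with 1 or 2 Reln UMIs.

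The 20 genes outside the gate with the highest ratio to all other cells, among those with at least 50 CPM in both libraries, are a description of the chosen cells and carry no test. Their ratios to other cells ran from 30.8 to 443 over both libraries. They were Gm27199, Barhl2, Gdf5, Lhx5, Lhx1os, Cd274, Ebf3, Ankrd35, Mrap2, Gm28050, Ecel1, Pnoc, Casz1, Kcnk9, Nppc, Zdhhc22, Penk, Syndig1l, Plekha7 and Tmem163. Secreted factors stood among them. Gdf5, a BMP-family growth factor, had a level of 187 CPM (control) and 170 CPM (Setdb1_cKO). Pnoc, the precursor of the peptide nociceptin, was at 451 and 335 CPM, and the GABAergic gate held it too, at 178 and 86.2 CPM. Nppc, the precursor of C-type natriuretic peptide, was at 70.5 and 75.8 CPM. Cd274, which encodes the immune checkpoint ligand PD-L1, was at 100 and 121 CPM, against 0.483 and 0.991 CPM in all other cells. Gm27199 and Lhx5 overlap on opposite strands, and the sources used here do not say whether counting used strand.

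Other identity genes were high but shared with other neurons. Snhg11, a noncoding RNA enriched in neurons, was at 2414 CPM (control) and 1787 CPM (Setdb1_cKO), and at 848 and 497 CPM in the GABAergic gate. Calb2, which encodes the calcium buffer calretinin, was at 974 and 1021 CPM, and neuroblasts had 789 and 554 CPM. The glutamate transporter gene Slc17a6 (VGLUT2) was at 365 and 394 CPM, against 24.0 and 24.3 CPM in all other cells. The pool of gated cells thus read as glutamatergic. Gad1 and the GABAergic marker Slc32a1 were both at 0 UMIs in 474 of the 492 control cells and 410 of the 460 Setdb1_cKO cells. Cxcl12, the chemokine better known from the overlying meninges, was at 1018 and 692 CPM, against 65.3 and 56.4 CPM elsewhere. Its receptor gene Cxcr4 was at 37.5 and 32.3 CPM. Barhl1 was at 0 UMIs in both libraries, Ebf1 at 22.6 and 10.9 CPM, and Eomes at 23.3 and 13.6 CPM.

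**Figure D1:**
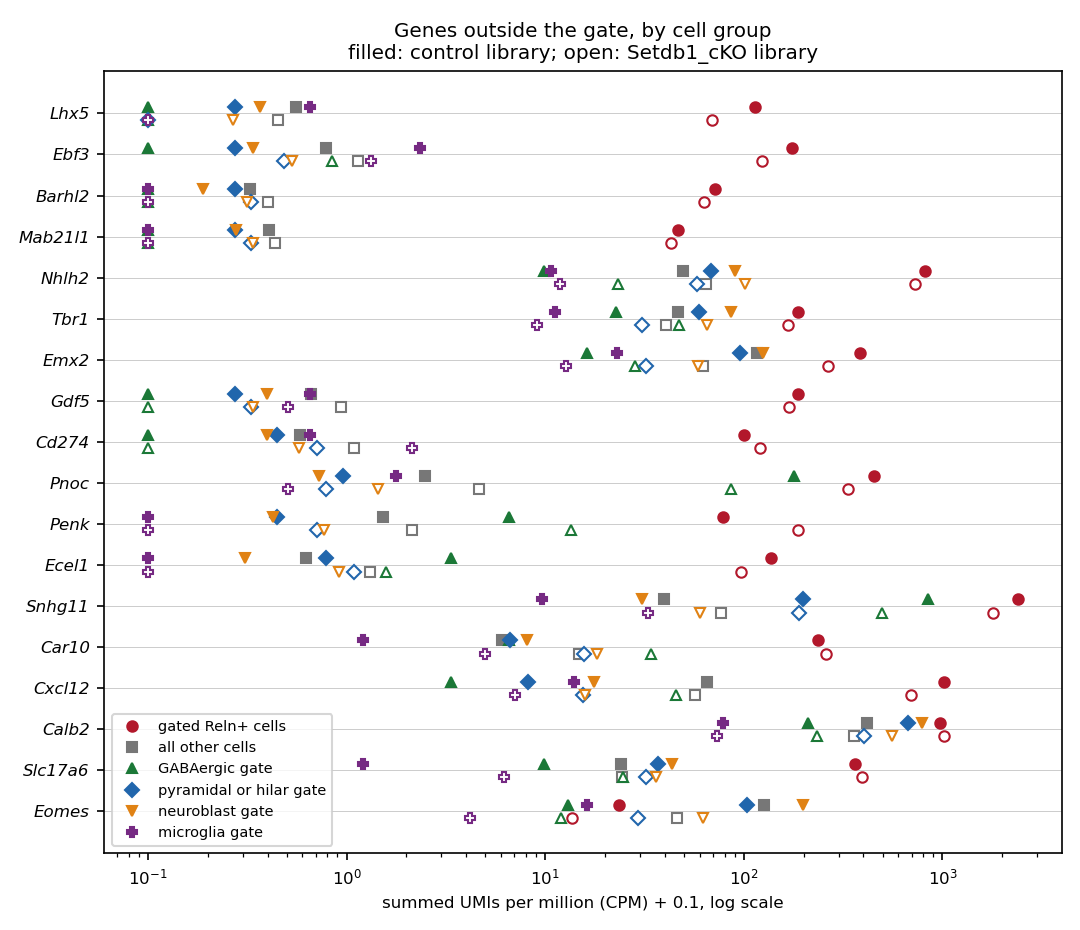
Level of 18 genes outside the gate in the gated Reln-expressing cells, in all other cells and in 4 simple gates, as CPM plus 0.1 on a log axis, with control filled and Setdb1_cKO open. Lhx5, Ebf3, Barhl2, Mab21l1 and Gdf5 sit above 40 CPM in gated cells of both libraries and at or below 2.23 CPM in every other group.

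The share of cells with a UMI was compared after each cell was thinned to 2000 UMIs, which left out 16 control cells and 11 Setdb1_cKO cells. Lhx5 was then detected in 24.4% of gated control cells (20.6 to 28.5) and in 13.4% of gated Setdb1_cKO cells (10.4 to 16.9), against 0.386% and 0% of microglia, a class that should lack it and whose cells had medians of 6025.5 and 7364.5 UMIs before thinning. Without thinning the shares in gated cells were 57.3% and 47.8%. Nhlh2, a helix-loop-helix factor of postmitotic neurons, was detected in 79.2% (75.3 to 82.8) and 75.3% (71 to 79.2), against 1.54% and 1.09% of microglia. The unthinned shares were 94.3% and 97.8% in gated cells. Background from free RNA in droplets was therefore low for both genes.

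Markers of other cell types were present in part of the gated cells, and the differences between libraries below have to be read beside them. At least 2 UMIs of any of Neurod6, C1qa, Cldn5, Col1a1, Pdgfra, Aqp4 and Igfbpl1 were found in 100 of the 492 control cells (20.3%) and in 110 of the 460 Setdb1_cKO cells (23.9%). Scrublet, a caller of cell doublets, marked 14.0% and 14.8% of the gated cells, against 4.91% and 5.48% of all other cells. The 10 endothelial and mural markers summed to 345 CPM in control and 179 CPM in Setdb1_cKO, with 0 to 302 and 0 to 335 UMIs per cell, and 1 cell held 20.7% and 38.4% of them. The 8 fibroblast markers summed to 222 and 94.1 CPM, with 0 to 287 and 0 to 38 UMIs per cell, and 1 control cell held 30.5%. The 10 microglia and macrophage markers summed to 78.3 and 184 CPM, with 0 to 135 and 0 to 213 UMIs per cell, and 1 cell held 40.7% and 23.7%. Haemoglobin UMIs lay in 1 cell to 88.5% and 93.9%.

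Among the other lists, those of radial glia, neuroblasts and pyramidal neurons reached 2 or more UMIs in most gated cells of both libraries. For radial glia these were 67.9% of control and 56.1% of Setdb1_cKO cells, but the UMIs were uneven. A single cell held 5.85% and 9.15% of them, and 5 cells held 23.1% and 36.5%. For neuroblasts 1 cell held 2.67% and 5.05%, and for pyramidal neurons 2.94% and 2.77%. The 10 radial glia and astrocyte markers summed to 1588 and 1237 CPM, with 0 to 394 and 0 to 551 UMIs per cell. The 10 neuroblast and granule neuron markers summed to 804 CPM in control and 1085 CPM in Setdb1_cKO, with 0 to 91 and 0 to 267 UMIs per cell. The 10 pyramidal and hilar markers summed to 1886 and 2125 CPM, with 0 to 235 and 0 to 286 UMIs per cell, and Spink8 was at 0 in Setdb1_cKO. The 10 cycling and intermediate progenitor markers summed to 221 and 264 CPM, with 0 to 47 and 0 to 91 UMIs per cell. The 8 oligodendrocyte progenitor markers summed to 191 and 281 CPM, with 0 to 30 and 0 to 22 UMIs per cell, and 6 ependymal markers to 7.31 and 21.8 CPM, with 0 to 6 and 0 to 34 UMIs per cell. GABAergic markers summed to 11.8 and 26.9 CPM, with 0 to 2 and 0 to 7 UMIs per cell and Dlx2 and Dlx5 at 0 in control. They reached 2 or more UMIs in 2 control and 25 Setdb1_cKO cells. The part of these lists in the results was not tested. Each named ratio was also computed in the 392 control and 350 Setdb1_cKO cells with under 2 UMIs of each of the 7 genes. These are called unmixed cells below, as a label for that cut only. Scrublet still marked 17 of these control and 9 of these Setdb1_cKO cells. The haemoglobin gene Hbb-bs had 26 and 761 UMIs in them, and the radial glia gene Fabp7 was at 630 and 299 CPM. Zbtb20, highest of the pyramidal list, was still at 1222 and 1080 CPM in them. C1ql1 (oligodendrocyte progenitor list) was at 104 and 261 CPM, Rgs5 (endothelial and mural) at 70.2 and 74.3 CPM and Islr (fibroblast) at 68.6 and 71.7 CPM. Each of these genes was the highest member of its list, so the sums do not measure mixed cells alone. Over all gated cells, leaving out that member moved the pyramidal ratio of Setdb1_cKO to control from 1.13 to 1.501. The oligodendrocyte progenitor ratio went from 1.47 to 0.672. The endothelial and mural ratio went from 0.520 to 0.420 and the fibroblast ratio from 0.424 to 0.234. Slc32a1 had 5 and 39 UMIs in unmixed cells, a ratio of 7.77 (3.06 to 25.3), and Gad1 had 6 and 17.

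Setdb1 itself was lower in the gated cells of the Setdb1_cKO library. It had 173 UMIs in gated control cells and 83 UMIs in gated Setdb1_cKO cells, which is 40.8 and 17.1 CPM and a ratio of 0.418 (95% interval 0.318 to 0.546). In unmixed cells the ratio was 0.375 (0.262 to 0.528), and in all other cells it was 0.484. After thinning, 7.14% of gated control cells (5.00 to 9.84) and 2.0% of gated Setdb1_cKO cells (0.921 to 3.77) had a Setdb1 UMI, and without thinning 29.7% and 15.7%. In microglia the thinned shares were 9.65% (6.34 to 13.9) and 9.49% (6.29 to 13.6). A 3' count does not show whether the remaining transcripts carry the deletion.

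Across genes the gated cells of the libraries lay close together. Of 11547 genes with at least 30 UMIs over both libraries, 256 were at least 2-fold higher in Setdb1_cKO (2.22%) and 190 at least 2-fold lower (1.65%). These shares are the background for each count of list members below. In all other cells, where 17467 genes passed that minimum, 1073 were at least 2-fold higher (6.14%) and 449 at least 2-fold lower (2.57%). The pools differ in depth and in the mix of cell types, so these percentages are not like for like. Of the 250 higher genes that were also measured in other cells, 93 were at least 2-fold higher there too, and of the 189 lower genes 42 were at least 2-fold lower there too. A single cell held over 25% of the control UMIs of 62 of the 190 lower genes, and over 25% of the Setdb1_cKO UMIs of 16 of the 256 higher genes. The median log2 ratio of all measured genes was -0.02.

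**Figure D2:**
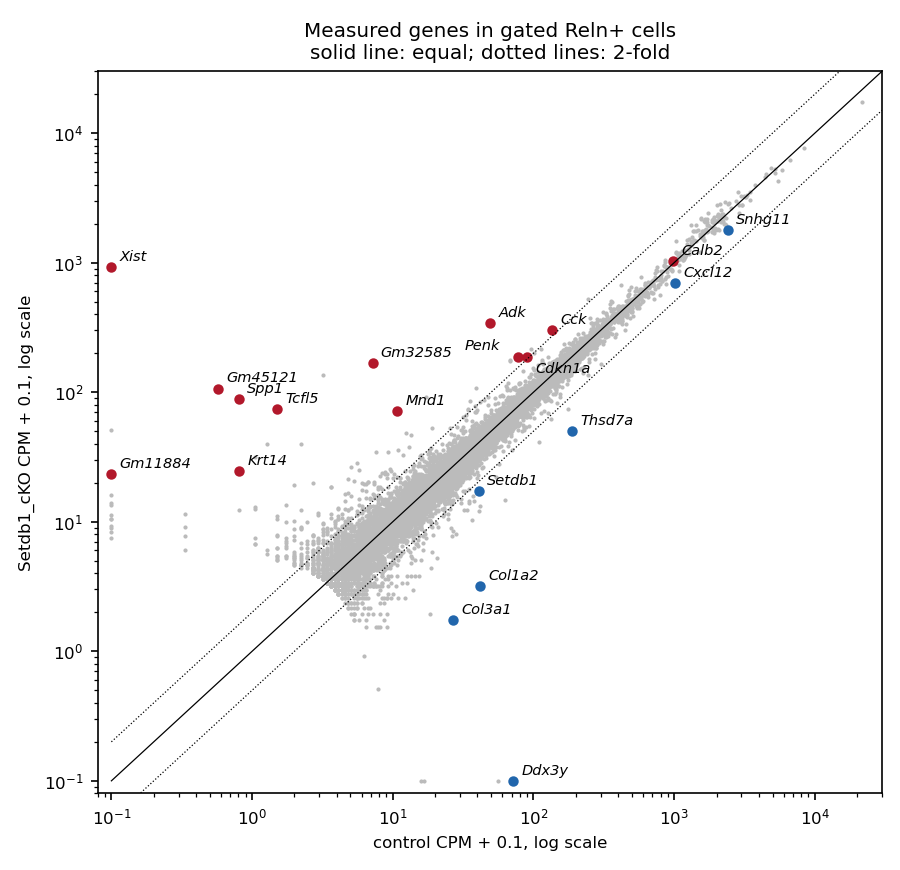
Level of each measured gene in gated cells, control on the x axis against Setdb1_cKO on the y axis, as CPM plus 0.1 on log axes, with the line of equality and dotted 2-fold lines. Adk, Tcfl5, Mnd1, Gm32585 and the X-linked Xist lie above the lines, Thsd7a, Col1a2, Col3a1, Setdb1 and the Y-linked Ddx3y below, and identity genes such as Calb2 and Snhg11 between the 2-fold lines.

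The gene with the most molecules among the 30 named as highest and lowest was Adk, which encodes adenosine kinase, the enzyme that clears adenosine by phosphorylating it (chr14:21052574-21448569 in mm10, plus strand). It had 209 UMIs in gated control cells and 1653 in gated Setdb1_cKO cells, or 49.3 and 340 CPM, a ratio of 6.89 (95% interval 5.96 to 7.99). The difference was spread over cells: 158 control cells and 367 Setdb1_cKO cells had a UMI, and 0.203% and 32.2% of all gated cells had 5 or more. After thinning the shares with a UMI were 10.1% (7.53 to 13.1) and 46.8% (42.1 to 51.5), against 4.63% and 10.9% of microglia. Other cells had 60.1 and 238 CPM, a ratio of 3.96 (3.83 to 4.09). In unmixed cells the ratio was 7.55 (6.35 to 9.03).

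Noncoding transcripts made up a large part of the 15 highest genes, which were ranked by the bound of the interval nearest to 1. Gm45121 had 2 UMIs in control and 519 in Setdb1_cKO, and Gm11884 had 0 and 113, a level at least 32.8-fold higher in Setdb1_cKO if a floor of 3 counts stands for the 0. Gm49795 had 13 and 663 UMIs, Gm7967 had 5 and 195, and 3222401L13Rik had 9 and 192. Each of these 5 was also higher in the other cells of the Setdb1_cKO library. Gm32585 (chr5:125238314-125272815, minus strand) had 30 and 821 UMIs, or 7.08 and 169 CPM, a ratio of 23.8 (16.6 to 35.6). Its level in all other cells was 0.644 CPM (control) and 3.55 CPM (Setdb1_cKO), far below the gated cells of the same library. After thinning, 1.05% (0.342 to 2.43) and 20.7% (17.1 to 24.8) of gated cells had a Gm32585 UMI, and 0% and 0.365% of microglia.

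Protein-coding genes among the 15 differed in how widely they were spread. Cox6b2, a subunit of cytochrome c oxidase known from testis, had 72 and 444 UMIs, or 17 and 91.2 CPM, a ratio of 5.37 (4.18 to 6.99), in 59 and 212 cells. Atp6ap1l, a relative of a proton pump accessory protein, had 4.95 and 26.5 CPM, a ratio of 5.35 (3.36 to 8.94), while in other cells it had 1.68 and 1.86 CPM, a ratio of 1.11 (0.867 to 1.42). Crlf2, a receptor chain for the cytokine TSLP, had 5.42 and 28.1 CPM, a ratio of 5.19 (3.32 to 8.46). Krt14, a keratin of basal epithelial cells, was found in 3 control and 33 Setdb1_cKO cells, with 3 and 119 UMIs, and 27 of those lay in 1 cell. In contrast, Spp1 (osteopontin) had 428 UMIs in Setdb1_cKO, of which 97.7% lay in 1 cell, and Pf4, a chemokine of platelets and border macrophages, had 154 UMIs in 3 cells. In unmixed cells Spp1 had 2 and 6 UMIs and Pf4 had 0 in both libraries, and without the cells marked by Scrublet the Pf4 ratio was 0.232.

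**Figure D3:**
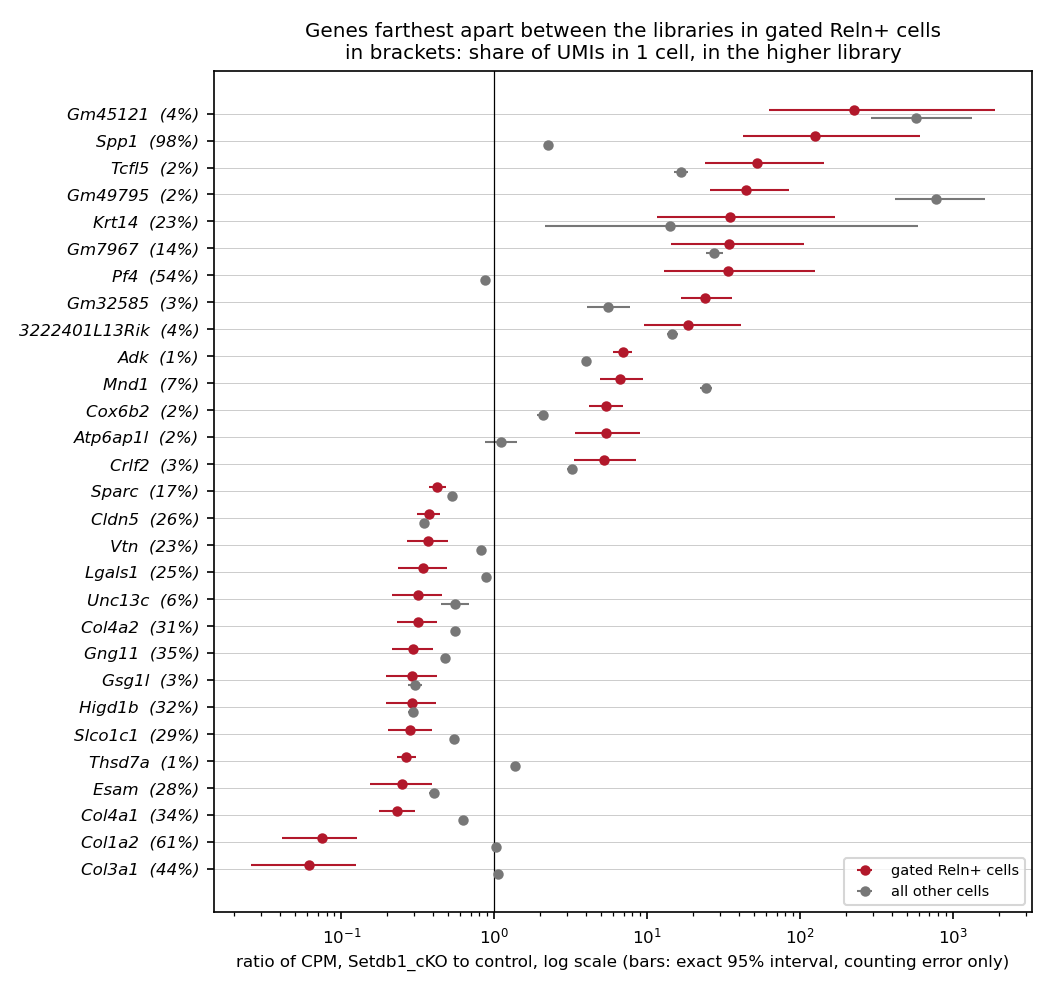
Ratio of CPM, Setdb1_cKO to control, on a log axis for the 15 highest and 15 lowest genes in gated cells (red) and in all other cells (grey), with exact 95% intervals for counting error; Gm11884, at 0 UMIs in control, is left out. The bracket beside each name is the share of its UMIs held by 1 cell of the higher library, which is 98% for Spp1, 61% for Col1a2 and 1% for both Adk and Thsd7a.

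Germline genes, normally silent outside the gonads, were higher in the gated cells of the Setdb1_cKO library. The 40 genes of the list summed to 63.9 CPM in control and 241 CPM in Setdb1_cKO, a ratio of 3.77 (3.30 to 4.32). This list was drawn up with earlier results of these data known, so it is no independent evidence. Of the 40, 7 passed the minimum of 30 UMIs and 6 of these 7 were at least 2-fold higher. A low gene passes mainly through the library in which it is high, so this share supports nothing by itself, and the background was 2.22%. In all other cells the list went from 30.1 to 357 CPM, a ratio of 11.8. Tcfl5, a helix-loop-helix factor of spermatocytes, had 6 UMIs in 6 control cells and 359 UMIs in 204 Setdb1_cKO cells, or 1.42 and 73.7 CPM. Mnd1, which acts in meiotic recombination, had 45 and 345 UMIs in 40 and 140 cells, or 10.6 and 70.9 CPM, a ratio of 6.68 (4.88 to 9.33), while in other cells the ratio was 24.1 (22.1 to 26.3). Mnd1 was thus less far apart in the gated cells than in the pool of other cells, where it went from 7.39 to 178 CPM. In unmixed cells its ratio was 4.87 (3.20 to 7.67).

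Further germline genes were at lower levels. Sycp3, of the synaptonemal complex, had 4 and 63 UMIs, Ddx4, the germ cell RNA helicase Vasa, had 1 and 44, and Rec8, a meiotic cohesin, had 6 and 26. Brdt, a testis bromodomain protein, had 29 and 74 UMIs, a ratio of 2.22 (1.43 to 3.54). Tex15, which acts in male germ cells, had 153 and 174 UMIs and a ratio of 0.991 (0.793 to 1.24), although in other cells it was 2.90-fold higher. The other 33 members stayed under 30 UMIs over both libraries.

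The promoter windows of the 4 germline genes with the highest Setdb1_cKO level among those at least 2-fold higher are shown. They were chosen by level and then searched for 2 motifs known from silenced germline promoters. They come from RefSeq on GRCm38.p6, run from 250 bases before to 50 bases after the annotated start and are written along the gene's strand. Capitals mark CACGTG, the E-box, and TCCCGC, the core of an E2F6 site, on either strand (GCGGGA is TCCCGC read on the other strand, and CACGTG reads the same on both). No marked matches overlap. Tcfl5 lies at chr2:180642642-180642941 (minus), Mnd1 at chr3:84155737-84156036 (minus), Brdt at chr5:107330944-107331243 (plus) and Sycp3 at chr10:88459337-88459636 (plus).
Tcfl5: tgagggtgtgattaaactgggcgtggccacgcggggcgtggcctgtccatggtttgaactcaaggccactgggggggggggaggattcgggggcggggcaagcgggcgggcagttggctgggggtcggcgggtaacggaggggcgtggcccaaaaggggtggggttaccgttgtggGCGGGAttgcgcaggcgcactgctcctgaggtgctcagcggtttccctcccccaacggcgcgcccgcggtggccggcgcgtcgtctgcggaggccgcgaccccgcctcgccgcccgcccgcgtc
Mnd1: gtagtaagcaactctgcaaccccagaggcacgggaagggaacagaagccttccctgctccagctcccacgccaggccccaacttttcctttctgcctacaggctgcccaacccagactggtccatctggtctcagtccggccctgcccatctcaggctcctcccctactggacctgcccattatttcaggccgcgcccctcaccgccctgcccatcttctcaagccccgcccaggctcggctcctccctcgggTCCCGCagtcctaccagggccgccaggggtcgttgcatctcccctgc
Brdt: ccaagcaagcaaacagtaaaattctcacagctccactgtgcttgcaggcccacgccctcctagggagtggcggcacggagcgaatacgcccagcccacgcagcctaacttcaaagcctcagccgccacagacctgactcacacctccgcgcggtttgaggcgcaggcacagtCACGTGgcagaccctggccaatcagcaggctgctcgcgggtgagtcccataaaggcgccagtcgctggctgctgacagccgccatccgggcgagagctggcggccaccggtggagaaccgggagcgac
Sycp3: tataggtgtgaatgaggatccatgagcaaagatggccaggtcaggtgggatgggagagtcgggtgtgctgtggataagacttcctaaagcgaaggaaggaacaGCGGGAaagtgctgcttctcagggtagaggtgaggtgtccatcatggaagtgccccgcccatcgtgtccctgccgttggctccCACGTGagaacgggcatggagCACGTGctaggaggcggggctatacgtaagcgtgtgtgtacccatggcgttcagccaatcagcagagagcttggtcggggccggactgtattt
The Tcfl5 and Mnd1 windows hold 1 TCCCGC match each and 0 of CACGTG, the Brdt window holds 1 CACGTG and 0 of TCCCGC, and the Sycp3 window holds 2 and 1. Among 32851 RefSeq windows of the same length, 7.15% hold CACGTG and 20% hold TCCCGC. The 4 windows also hold 35, 12, 23 and 15 CpG pairs in the order given, against a median of 7. A match is a description of the letters and says nothing of binding.

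A list of 11 transcripts that earlier work on these libraries had found higher in 5 other cell classes was higher here too, and since it was chosen on these samples it is no independent evidence. It summed to 181 CPM in control and 774 CPM in Setdb1_cKO, a ratio of 4.27 (3.95 to 4.62), and 10 of its 11 members were at least 2-fold higher. Its median log2 ratio was 2.73, as in the germline list, and in both it was that of Mnd1. The lists thus overlap and are not separate results. The member just under 2-fold was Atf7ip, a partner of SETDB1, with 100 and 199 CPM and a ratio of 1.99 (1.77 to 2.24). Samd1, a reader of unmethylated CpG islands, had 12.3 and 48.1 CPM. The list of 28 H3K9 methylation and partner genes had a summed ratio of 1.04 (1.02 to 1.07), and Setdb1 was its only member at least 2-fold apart among 25 measured.

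Clustered protocadherins, the cell-surface proteins that give neurons individual identity, were higher as a group. Their 56 genes summed to 188 CPM in control and 263 CPM in Setdb1_cKO, a ratio of 1.40 (1.28 to 1.53), against 2.04 in other cells. Of 29 measured members 11 were at least 2-fold higher and 1 lower, where the background was 2.22% and 1.65%, and as with germline genes a low member passes the minimum mainly through the library in which it is high. Among gamma-A isoforms, Pcdhga8 had 28 and 99 UMIs, Pcdhga12 had 25 and 85, Pcdhga10 had 24 and 72, and Pcdhga7 had 42 and 106, while Pcdhga5 had 57 and 45. Pcdha11 had 24 and 56. The member lower was the C-type isoform Pcdhgc3, with 40 and 21 UMIs. Among 11 other protocadherins, Pcdh20 had 20 and 103 UMIs, and the list's ratio was 1.28 (1.18 to 1.39). Isoforms of a cluster share exons at the 3' end, so the split between them is uncertain.

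The genes lower in Setdb1_cKO differed in how their UMIs were spread over cells. Of the 15 lowest, Col3a1, Col1a2, Col4a1, Col4a2, Slco1c1, Esam, Gng11, Higd1b, Cldn5, Sparc, Lgals1 and Vtn are known from fibroblasts, endothelial cells or mural cells, and 1 cell held between 17% and 61% of the control UMIs of each. Col1a2 had 176 and 15 UMIs and Cldn5 had 465 and 199 over all gated cells. In unmixed cells Col1a2 had 4 and 3 UMIs, Col3a1 had 1 and 1 and Cldn5 had 1 and 3, although Col1a1 and Cldn5 are among the genes that define unmixed cells. Slco1c1, a thyroid hormone transporter of brain endothelium and astrocytes, had 27 and 8 UMIs there and a ratio of 0.295 (0.116 to 0.668). When the gate was applied to cells thinned to 2000 UMIs, 8 of the 12 turned direction, with ratios from 1.05 for Sparc to 2.97 for Vtn. The other 3 were spread over many cells.

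Thsd7a was the lowest of these 3 (chr6:12311610-12749410, minus strand). It encodes a membrane protein with thrombospondin repeats. It had 795 UMIs in 340 gated control cells and 243 UMIs in 140 gated Setdb1_cKO cells, or 187 and 49.9 CPM, a ratio of 0.266 (0.230 to 0.308). After thinning, 30.7% (26.6 to 35.0) and 8.69% (6.25 to 11.7) of the gated cells had a UMI, against 2.32% and 1.46% of microglia, and without thinning 69.1% and 30.4%. In all other cells the level went the other way, from 59.4 to 80.6 CPM, a ratio of 1.36 (1.31 to 1.41). In unmixed cells the ratio was 0.218 (0.180 to 0.264). Gsg1l, an auxiliary subunit of AMPA receptors, had 26.2 and 7.60 CPM, a ratio of 0.290 (0.194 to 0.425), and in other cells 0.304. Unc13c, a presynaptic vesicle priming factor, had 26.7 and 8.42 CPM, a ratio of 0.316 (0.215 to 0.455), and in other cells 0.555.

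When the same ranking was repeated in unmixed cells, after the values had been seen, 13 of the 15 highest genes were shared with the first ranking but only 3 of the 15 lowest. Of 10241 genes measured there, 159 were at least 2-fold higher and 143 lower. Fabp4, a fatty acid binding protein, and Gramd1c, a sterol transport protein, entered the highest genes, with 5 and 70 UMIs and 5 and 63 UMIs in unmixed cells, in place of Spp1 and Pf4. Thsd7a, Gsg1l, Unc13c and Setdb1 itself were among the 15 lowest. The other 11 included several genes known from glia: Ptprz1 had 172 and 58.4 CPM in unmixed cells, Slc1a3 (a glial glutamate transporter) 115 and 46.9 CPM, Fabp7 630 and 299 CPM and Slc1a2 204 and 94.1 CPM, beside Qk, Dclk1, Epha4, Igfbp2, Tafa2 and D430041D05Rik. The ratio of the radial glia and astrocyte list was 0.779 (0.752 to 0.806) over all gated cells and 0.731 in other cells. Without the cells marked by Scrublet, Fabp7 was at 1.22 and Ptprz1 at 1.25, so the direction of these 2 genes depends on which mixed cells are left out, while Slc1a3, Slc1a2, Qk and Igfbp2 stayed below 1 under all alternatives run. D430041D05Rik had 143 and 49.9 CPM in unmixed cells, a ratio of 0.348 (0.287 to 0.419), while in other cells its ratio was 1.45 (1.39 to 1.5).

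**Figure D4:**
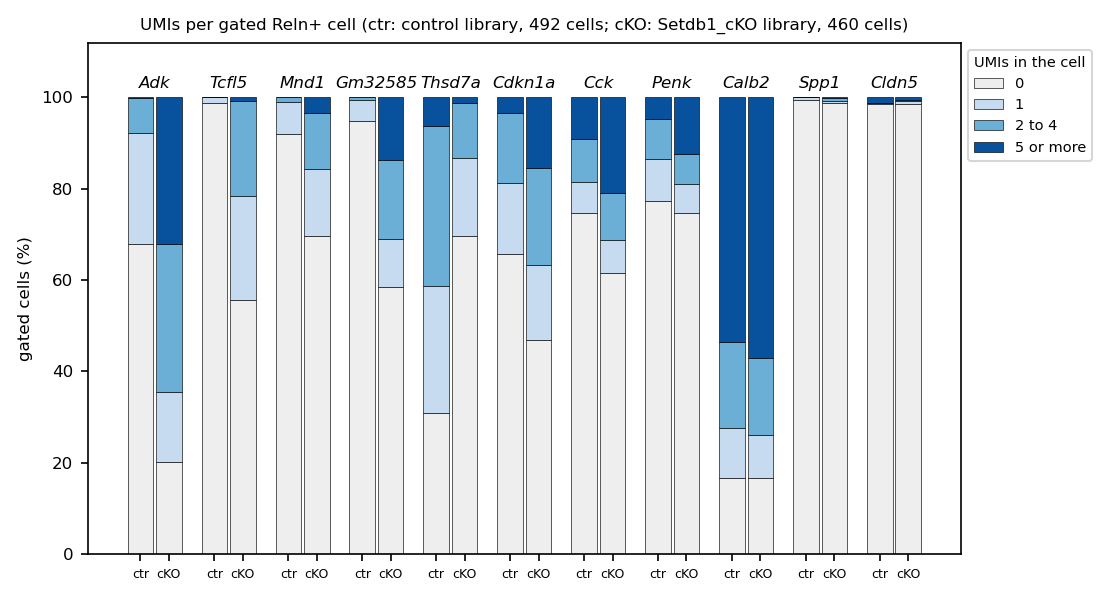
Share of gated cells with 0, 1, 2 to 4 and 5 or more UMIs of 11 genes, in percent, for the control library (492 cells) and the Setdb1_cKO library (460 cells), without thinning. Adk moves from 67.9% to 20.2% of cells at 0, Thsd7a from 30.9% to 69.6%, and Calb2 stays at 16.7% and 16.5%, while Spp1 and Cldn5 are at 0 in over 98% of cells of either library.

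Identity genes were mostly somewhat lower in Setdb1_cKO, by less than 2-fold. The 20 Cajal-Retzius transcription factors summed to 3255 CPM in control and 2799 CPM in Setdb1_cKO, a ratio of 0.860 (0.840 to 0.881). Of 18 measured, beside 2.22% and 1.65% of all measured genes, 0 were at least 2-fold higher and 1 lower. That 1 was Ebf1, at 0.481 (0.337 to 0.679), and in unmixed cells it was at 0.682 (0.398 to 1.15), no longer 2-fold apart. Lhx5 had a ratio of 0.607 (0.526 to 0.699), Ebf3 of 0.703 (0.630 to 0.783) and Emx2, a homeobox gene of the hem and hippocampus, of 0.692 (0.643 to 0.745), while Nhlh2 was at 0.886 (0.845 to 0.929) and Tbr1 at 0.890 (0.806 to 0.982). Nr2f2, the factor COUP-TFII, was at 0.898 (0.850 to 0.947) and Zic1 at 0.924 (0.838 to 1.02). In unmixed cells Lhx5 was at 0.700 (0.596 to 0.822), Ebf3 at 0.799 (0.705 to 0.904) and Nhlh2 at 0.960 (0.910 to 1.01). The median log2 ratio of the list was -0.18, against -0.02 for all measured genes.

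Surface and signalling genes of the same identity summed to 9896 and 8984 CPM, a ratio of 0.908 (0.896 to 0.920), against 1.58 in other cells. Of 21 measured, 1 was at least 2-fold higher and 0 lower, beside 2.22% and 1.65% of all measured genes. Snhg11 was at 0.740 (0.719 to 0.762), Ramp3, a receptor activity modifying protein, at 0.608 (0.492 to 0.750), Nxph3 at 0.854 (0.733 to 0.994), Car10 at 1.09 (1.0 to 1.19) and Calb2 at 1.05 (1.01 to 1.09), or 0.990 as a mean over cells. The member at least 2-fold higher was Cdkn1a, the p53 target gene p21 that stops the cell cycle. It had 383 UMIs in control and 916 in Setdb1_cKO, or 90.3 and 188 CPM, a ratio of 2.08 (1.85 to 2.35), against 0.959 in other cells. After thinning, 15.3% (12.2 to 18.9) and 25.6% (21.6 to 29.9) of gated cells had a Cdkn1a UMI, and microglia, which also express it, had 21.6% and 21.2%. In unmixed cells the Cdkn1a ratio was 2.33 (2.03 to 2.68).

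In sum the p53 and cell death list, Cdkn1a included, was level. Its 26 genes summed to 1361 and 1388 CPM, a ratio of 1.02 (0.985 to 1.06), and Cdkn1a was the only 1 of 20 measured members at least 2-fold apart. The death effector gene Bax had a ratio of 1.04 (0.951 to 1.13), and Diablo, a mitochondrial protein that blocks caspase inhibitors, 0.778 (0.723 to 0.838). Diablo was the highest member of the list, and without it the list's ratio was 1.11 (1.06 to 1.15). The stress response list of 16 genes summed to 1348 and 1693 CPM, a ratio of 1.26 (1.21 to 1.30), against 1.01 in other cells. Of 15 measured members, beside 2.22% of all measured genes, 2 were at least 2-fold higher. They were the ATF4 targets Asns, with 41.5 and 83.6 CPM, and Atf5, with 38.4 and 78.3 CPM. The chaperone gene Hspa5 was at 1.34 (1.25 to 1.43) and Manf at 1.28 (1.17 to 1.41). Immediate early and heat shock genes, which mark handling of the tissue, had a ratio of 0.943 (0.916 to 0.970), interferon response genes 0.874 (0.823 to 0.929), ribosomal protein genes 1.13 (1.13 to 1.13) and mitochondrial transcripts 0.966 (0.960 to 0.973). None of these 4 lists held a member at least 2-fold higher, and interferon genes held 1 lower of 11 measured. Without its highest member, Ifitm2, the interferon list was at 0.997 (0.893 to 1.11). The immediate early and heat shock list was at 0.985 (0.943 to 1.03) without Hsp90aa1. Without their highest members the ribosomal list stayed at 1.13 and the mitochondrial list was at 0.980.

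The signals through which these cells act on their neighbours differed in part. Reln, which chose the cells, was at 3893 and 2977 CPM, as a description. The 19 other genes of the reelin pathway summed to 1464 and 1427 CPM, a ratio of 0.975 (0.942 to 1.01). Of 16 measured members 0 were at least 2-fold higher and 1 lower, beside 2.22% and 1.65% of all measured genes. The receptor gene Lrp8 was at 0.835 (0.715 to 0.975), the kinase gene Fyn at 0.938 (0.842 to 1.05) and Pafah1b1 (Lis1), which acts on dynein downstream of Dab1, at 0.995 (0.944 to 1.05). The lower member was Plat, a protease that can cut reelin, with 69 and 37 UMIs and a ratio of 0.467 (0.305 to 0.706), but in unmixed cells it had 28 and 15 UMIs and a ratio of 0.534 (0.265 to 1.03). Cxcl12 had a ratio of 0.680 (0.650 to 0.711) and Cxcr4 of 0.860 (0.685 to 1.08).

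Peptide genes moved apart from one another. Of 12 measured neuropeptide and granin genes 2 were at least 2-fold higher and 1 lower, beside 2.22% and 1.65% of all measured genes. The list's summed ratio was 1.02 (0.992 to 1.06), and 1.28 (1.23 to 1.33) without its highest member, Chgb. Penk, the precursor of enkephalins, had 331 UMIs in control and 917 in Setdb1_cKO, or 78.1 and 188 CPM, a ratio of 2.41 (2.13 to 2.74). Its share of cells differed less, at 10.5% (7.90 to 13.6) and 15.1% (12 to 18.8) after thinning and 22.8% and 25.4% without, against 0% of microglia in both libraries. Cck, the precursor of cholecystokinin, had 571 and 1467 UMIs, or 135 and 301 CPM, a ratio of 2.24 (2.03 to 2.47). Its thinned shares were 14.7% (11.6 to 18.2) and 24.9% (21.0 to 29.2), and without thinning 25.4% and 38.5%. C1ql1, a synaptic ligand that stood in the oligodendrocyte progenitor list, had 95.5 and 217 CPM in gated cells, a ratio of 2.27 (2.02 to 2.55). The granin gene Chgb was at 0.710 (0.674 to 0.747) and Pnoc at 0.742 (0.694 to 0.793).

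Potassium channel genes were lower in sum, and the other channel lists lay nearer to 1. Potassium channel genes summed to 1615 and 1307 CPM, a ratio of 0.809 (0.782 to 0.837). Of 26 measured members 0 were at least 2-fold higher and 1, Kcnj6, lower, beside 2.22% and 1.65% of all measured genes. The members of highest level were all lower by less than 2-fold: Kcnh7 at 0.813 (0.754 to 0.877), Kcnk2 at 0.736 (0.676 to 0.803), Kcnma1 at 0.780 (0.705 to 0.863) and Kcnb2 at 0.691 (0.628 to 0.761). Sodium, calcium and HCN channel genes had a ratio of 0.900 (0.869 to 0.932) with 0 of 25 measured members apart in either direction, and Cacna2d1 was at 0.801 (0.756 to 0.850), against 2.07 in other cells.

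Glutamate transmission genes had a ratio of 1.01 (0.972 to 1.05), with 5 of 16 measured members at least 2-fold higher and 1 lower, beside 2.22% and 1.65% of all measured genes. Those higher were the receptor subunit genes Grin2b, Grik2 and Gria3 and the vesicular transporter genes Slc17a7 and Slc17a8. Grin2b had 34.2 and 74 CPM, and 15.2 and 33.3 CPM in unmixed cells. Slc17a7 had only 4 and 8 UMIs in unmixed cells, a ratio of 1.99 (0.534 to 9.04), and Grik2 only 2 and 10. Slc17a8 (VGLUT3) had 12 and 24.7 CPM, against 0.282 and 0.790 CPM in other cells. The lower member was the kainate receptor subunit Grik1, with 30.7 and 14.0 CPM and a ratio of 0.456 (0.335 to 0.616), whose ratio in other cells was 1.48 (1.22 to 1.79). Gria1 was at 0.676 (0.605 to 0.756) and Gria4 at 1.11 (0.981 to 1.26). The list of pyramidal and hilar markers had a ratio of 1.13 (1.09 to 1.16) in the same cells, and of 1.501 (1.402 to 1.607) without Zbtb20. In unmixed cells, which were chosen in part by low Neurod6, that list was at 0.922. Ratios there were 2.19 (1.53 to 3.17) for Grin2b, 2.27 (1.28 to 4.20) for Gria3 and 2.45 (1.66 to 3.70) for Slc17a8. The part of mixed cells was not tested.

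The counts of the remaining lists stand beside the same 2.22% higher and 1.65% lower over all measured genes. GABA and glycine receptor and chloride transporter genes had a ratio of 1.08 (1.03 to 1.13) with 3 of 20 measured members higher, among them Gabra5 with 38 and 114 UMIs, whose ratio in unmixed cells was 1.55 (0.625 to 4.06). Synaptic adhesion genes had a ratio of 0.914 (0.896 to 0.932) with 4 of 41 higher, Cadm1, Nrxn3, Nxph1 and Slitrk1, while the highest of them, Clstn1, was at 0.878 (0.836 to 0.922). Axon guidance genes had a ratio of 0.976 (0.947 to 1.01) with 1 of 39 higher and 0 lower, and Robo2, a Slit receptor, was at 0.796 (0.744 to 0.851). Neurofilament and microtubule genes had a ratio of 0.919 (0.911 to 0.927) with 0 of 18 apart, and the growth cone gene Gap43 was at 0.943 (0.918 to 0.969), against 1.91 in other cells. Survival factor genes had a ratio of 1.0 (0.953 to 1.06) with 2 of 11 higher. Without Ntrk2, their highest member, the ratio was 1.17 (1.10 to 1.25). Ntrk2 itself was at 0.731 (0.668 to 0.801) and Gfra1 at 1.13 (1.01 to 1.25). Imprinted genes had a ratio of 0.873 (0.862 to 0.885) with 1 of 30 higher and 2 lower. Without Meg3, their highest member, the ratio was 0.988 (0.969 to 1.01). The noncoding imprinted Meg3 was at 0.776 (0.761 to 0.791) in gated cells and 3.06 in other cells. Genes of the Gmnc and multiciliation program, which in mice acts upstream of Trp73 in hem-derived cells, summed to only 24.8 and 26.3 CPM, with Gmnc at 0 UMIs in control.

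**Figure D5:**
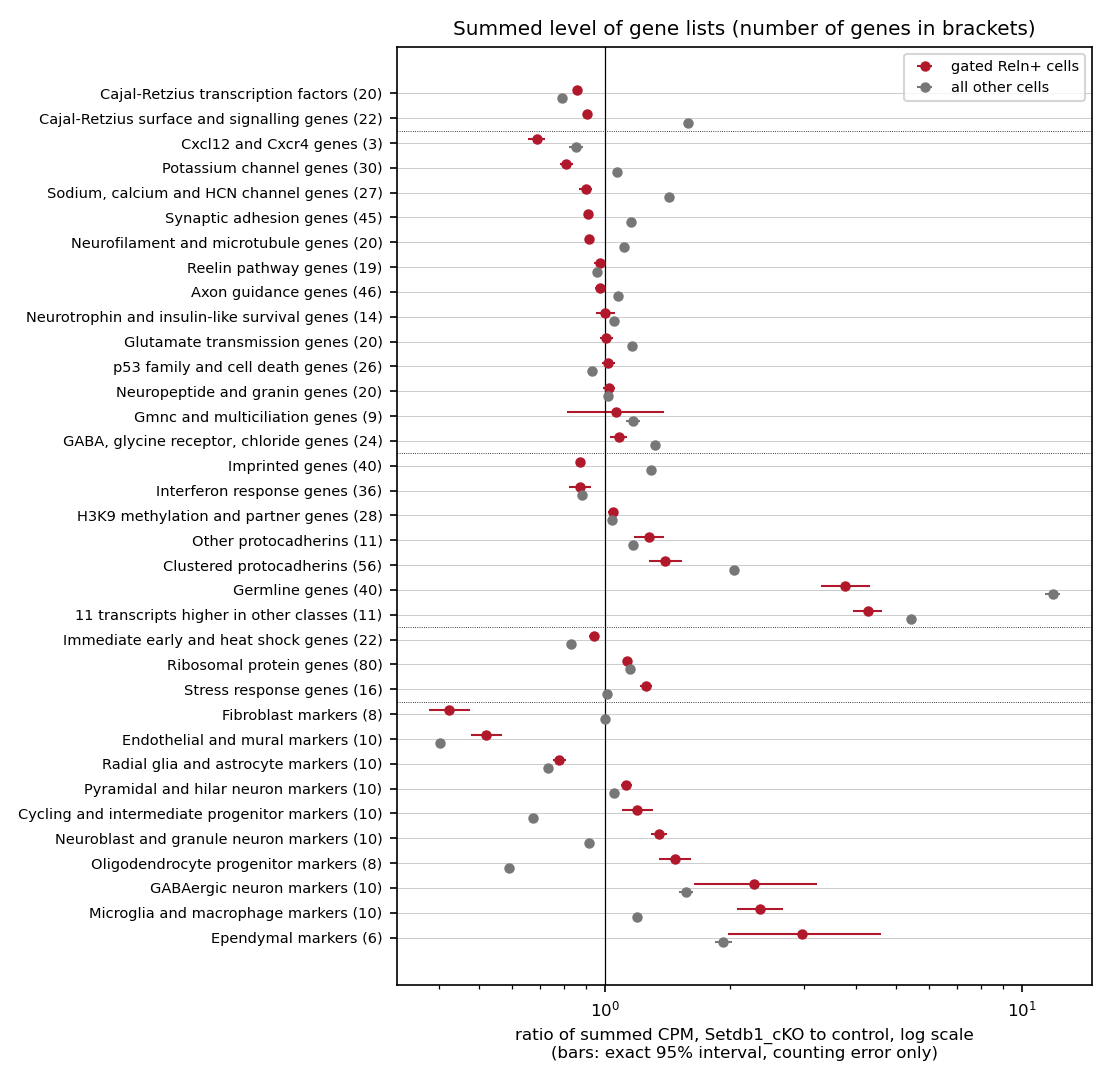
Ratio of the summed CPM of 35 gene lists, Setdb1_cKO to control, on a log axis in gated cells (red) and all other cells (grey), with exact 95% intervals for counting error and dotted lines between kinds of list. Germline genes (3.77) and the 11 transcripts chosen on these libraries (4.27), lists that overlap, lie highest among lists of the cells' own genes, and the neuronal lists lie between 0.686 and 1.08 in gated cells.

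The gated cells were not uniform, and a split by Calb2, chosen after the values had been seen, shows part of this. Among unmixed cells, 69 control and 67 Setdb1_cKO cells had 0 Calb2 UMIs, with medians of 6180 and 6063 UMIs, and 202 and 186 cells had at least 5, with medians of 8638 and 10116, so depth moves with the split. Cck was at 2.34 and 15.5 CPM in cells without Calb2 and at 250.3 and 542 CPM in cells with at least 5 UMIs of it. Penk was at 4.68 and 54.4 CPM against 136 and 278 CPM, and Cxcl12 at 302 and 347 CPM against 1558 and 1084 CPM. Cck, Penk and Cxcl12 were thus higher with Calb2 in both libraries.

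Other identity genes varied in both directions along the split. Slc17a6 was at 290 and 306 CPM without Calb2 and at 478 and 506 CPM with at least 5 UMIs of it, and Car10 at 201 and 215 CPM against 290 and 336 CPM. Lhx1 was at 776 and 785 CPM without Calb2 and at 463 and 393 CPM with it, and Ecel1 was at 215 and 202 CPM against 104 and 71.1 CPM. Wnt4 was at 143 and 88.1 CPM against 66.9 and 46.5 CPM. Trp73 (227 and 236 CPM against 216 and 212 CPM), Nr2f2 and Tbr1 differed little. Fabp7, of radial glia, was at 1739 and 1114 CPM in cells without Calb2 and 372 and 62.9 CPM with it, and Apoe at 701 and 533.5 CPM against 145 and 45.5 CPM, so glial transcripts move with the split and their part was not tested. Adk and Thsd7a were apart between the libraries at both ends of the split. Adk was at 35.1 and 241 CPM in cells without Calb2 and at 42.7 and 427 CPM in cells with at least 5 UMIs of it. Thsd7a was at 231 and 88.1 CPM in the former and at 183 and 27.6 CPM in the latter. Cdkn1a was at 119 and 145 CPM without Calb2 and at 86.6 and 272 CPM with it, so its levels lay further apart where Calb2 was high.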

How the data were processed

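The authors deposited 1 matrix of UMI counts per library, whole numbers per gene and barcode that were not normalised, with gene and barcode lists. The submitters' processing notes name Cell Ranger 7.1.0, Seurat and the build mm10, and the sources used here give neither the annotation release nor how intronic and antisense reads were counted. About 20000 cells were loaded and 10000 aimed for per library, per the labels' protocols. The lowest deposited barcode held 500 UMIs in either library, so barcodes of lower depth had been left out before deposit.

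Members and gene lists were chosen with earlier results of these data known. The libraries held 82393428 (control) and 87845965 (Setdb1_cKO) UMIs. Raw counts were added up over the gated cells of a library and divided by their total to give CPM, which says nothing of RNA per cell or of gene length. Intervals at 95% are Clopper-Pearson for shares and exact Poisson, conditional on both counts, for ratios of CPM. Free RNA, doublets and sampling of cells are not covered by them, and 1 library per genotype allows no test. Genes were called measured from 30 UMIs up, over both libraries. Symbols that name 2 identifiers (38 of them) were summed. Doublets were scored with Scrublet (scanpy 1.11.5, expected rate 8%) and kept, with their removal as an alternative. Among measured genes at 20 CPM or more in whichever library was higher, the 15 highest and 15 lowest by the interval's bound nearest to 1 were named, leaving out the gate genes, sex-linked genes and those of ribosomes, mitochondria and haemoglobin. From each list at most 6 members at least 2-fold apart and 6 of highest level could be named. Genes from the repeat in unmixed cells, the genes of the Calb2 split and the plotted genes were chosen after their values were seen. Comparison gates, by UMIs, were GABAergic (30 control and 110 Setdb1_cKO cells), pyramidal or hilar (513 and 749), neuroblast (4828 and 4819) and microglia (272 and 286). Gene positions are from GENCODE vM21, which matched 32158 of 32285 identifiers. The code was tested on simulated counts.
Alternatives were stricter and looser gates, a gate without Cacna2d2, a gate with Gad1 and Slc32a1 also at 0, a gate on thinned cells, a stricter cell filter, removal of doublets or of cells with another type's marker, other scalings, other minima and folds, and leaving out a list's highest member or the cell with most UMIs. Results for some genes are not reported here.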

Additional observations from a re-analysis of the deposited data

Results flagged for a closer look

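In 6 named genes the libraries were at least 2-fold apart one way in the gated cells and apart the other way in all other cells, with both intervals clear of 1. Each genotype had 1 library, so these differences between cell groups were not tested. Thsd7a had a ratio of Setdb1_cKO to control CPM of 0.266 in gated cells and 1.36 in other cells. D430041D05Rik, named from the ranking in unmixed cells, was at 0.463 over all gated cells and 1.45 in other cells. Grik1 was at 0.456 and 1.48, and Kcnj6 at 0.484 and 1.18. Col3a1 was at 0.0611 and 1.06, with 44% of its control UMIs in 1 gated cell, and in unmixed cells it had 1 UMI in each library (ratio 0.997). Pf4 was at 33.5 and 0.876, with 54% of its Setdb1_cKO UMIs in 1 gated cell. The pool of other cells holds many cell types in unlike shares, whose part in the second value was not tested.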

How the results depend on the processing

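No paired analysis was possible because each group has 1 library. The ratio of gated shares, 1.07, was 1.22 under the stricter cell filter (2000 UMIs and 1000 genes or more, mitochondrial share up to 5%). It was 0.977 with the gate on thinned cells, where the shares were 3.86% in control and 3.78% in Setdb1_cKO. With Gad1 and Slc32a1 also at 0 they were 4.15% and 4.12%, so the direction of this difference depended on the gate. Numbers of genes at least 2-fold higher and lower (256 and 190) were 606 and 475 with a minimum of 10 UMIs, 84 and 46 with 100 UMIs, and 653 and 589 at 1.5-fold. The stricter filter gave 96 lower genes, and leaving out cells with another type's marker gave 159 higher. Germline genes (3.77) were at 3.28 in unmixed cells, 3.06 as a mean over cells and 3.19 without their highest member. The 11 transcripts (4.27) were at 3.75 in unmixed cells and 7.08 without the highest member. Stress response genes (1.26) were at 1.33 with the gate on thinned cells, 1.32 without doublets, 1.31 in unmixed cells and 1.33 without the highest member. The 2 Cajal-Retzius lists (0.860 and 0.908) were at 0.909 and 0.943 with the gate on thinned cells, 0.904 and 0.934 without doublets, and 0.921 and 0.936 in unmixed cells. The first was at 0.897 as a mean over cells. The second was at 0.891 under the stricter filter and 0.925 when scaled without mitochondrial, ribosomal and haemoglobin genes. The causes were not tested.

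Of 2157 alternative values for 188 results, 1842 stayed within the reported interval, or within 1.5-fold for counts, 285 moved and 30 turned direction. A turn was counted only where the reported interval lay clear of 1, so other results could cross 1 without being among the 30. With the gate on thinned cells, Col4a1 was at 1.12, Esam at 1.25, Gng11 at 1.94, Higd1b at 1.68, Col4a2 at 1.39, Cldn5 at 1.35, Sparc at 1.05 and Vtn at 2.97, and the neuroblast, cycling, endothelial and ependymal lists at 0.963, 0.980, 1.26 and 0.990. Without doublets, Pf4 was at 0.232, Ptprz1 at 1.25, Fabp7 at 1.22, and the haemoglobin, cycling, microglia and ependymal lists at 0.679, 0.985, 0.346 and 0.323. In unmixed cells, Cldn5 was at 2.99 and the neuroblast, pyramidal, cycling, microglia, endothelial and ependymal lists at 0.915, 0.922, 0.877, 0.913, 1.10 and 0.332. Cldn5 had only 1 and 3 UMIs there (interval 0.240 to 157). Unmixed cells were chosen by low counts of Cldn5 and other cell type markers, so these values are partly set by that choice. Calb2 was at 0.990 as a mean over cells. Without the highest member, the sex-linked and oligodendrocyte progenitor lists were at 0.319 and 0.672. Without the cell with most UMIs, an alternative chosen after seeing the data, the haemoglobin list was at 0.845. Setdb1, Adk, Tcfl5, Mnd1 and Thsd7a turned direction under none of the alternatives run.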
